A study of Rattus norvegicus with 10 samples.

Results

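The Pou4f and Isl genes encode transcription factors of sensory neurons, and 5 of them (Pou4f1, Pou4f2, Pou4f3, Isl1 and Isl2) were followed in rat cortical cultures treated with inhibitors of histone deacetylases (HDACs). They were chosen by name because earlier work on these data had shown high values after both drugs, so their changes with either drug are given as a description and without a test. Of the 32883 genes in the deposited table, 4 of the 5 could be read by an identifier paired with their symbol. Isl1 was not analysed here, since no table used here pairs its symbol with an identifier. Pou4f1 (ENSRNOG00000060662), Pou4f2 (ENSRNOG00000012167), Pou4f3 (ENSRNOG00000018842) and Isl2 (ENSRNOG00000015336) all passed the filter on low counts, as did 15717 genes in all. The filter needs about 10 reads at the median depth in 2 libraries, which Pou4f1 and Pou4f2 had in 0 of 5 control libraries, Pou4f3 in 1 and Isl2 in 4, against 5 of 5 treated libraries for each. The 3 Pou4f genes thus passed only through the treated libraries, and Isl2 would have passed on its controls.

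Bulk mRNA was sequenced from primary cultures of cells from the cortices of newborn Wistar rats, which hold neurons and glia and were treated on day 14 in vitro without washing the drug out. Trichostatin A (TSA, 100 nM) was applied for 19 h to 3 cultures, each with an untreated control culture, and sodium butyrate (NaB) was applied for 24 h to 2 cultures, each with an untreated control culture of its own. NaB is listed at 5 mM in the methods and at 5 µM in the sample labels. The study states that the NaB cultures belonged to another project, with controls of the same incubation time, so that drug, incubation time and project changed together and cannot be told apart. A library held between 26070908 and 27649249 reads in genes. Values are normalized counts, that is, reads divided by 1 size factor per library, and 1 read was worth between 0.905 and 1.07 normalized counts. Transcript lengths were not used, so that levels are compared between libraries and not between genes.

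The Pou4f factors carry a POU-specific domain and a homeodomain, which together bind DNA, whereas the Isl factors carry LIM domains for protein contacts and a homeodomain. Pou4f1 marks sensory neurons of dorsal root and cranial ganglia, Pou4f2 marks retinal ganglion cells and Pou4f3 marks hair cells of the inner ear. Isl1 acts beside Pou4f1 in ganglia and beside Pou4f2 in the retina, and both Isl genes are known from motor neurons as well. These factors switch on as progenitors leave the cell cycle, and the cerebral cortex is not among the tissues for which they are known.

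The promoter windows of these genes are rich in GC, and they are shown here as a description. RefSeq (build GRCr8, not the build to which the authors mapped the reads) gave a window of 300 bases, 250 before and 50 after the annotated start of transcription, for all 5 genes. In these windows the GC content was 72.3% for Pou4f1, 70.7% for Pou4f2, 67.3% for Pou4f3, 60.3% for Isl1 and 67.7% for Isl2, against a median of 51.7% over 33469 promoters. The window of Pou4f1 held 41 CpG dinucleotides, a number that 97.6% of all promoters did not exceed, against a median of 7. The windows of Pou4f2, Pou4f3, Isl1 and Isl2 held 18, 25, 21 and 28, not exceeded by 74.25%, 84.8%, 79.0% and 88.5% of all promoters. In Pou4f3 the bases after the annotated start open with ATG, and in Isl1 an ATG follows within a few bases. The annotated start of Pou4f3 and of Isl1 may thus be that of translation. Their windows may then hold transcribed bases in place of the promoter. The 250 bases before the start are printed 5′ to 3′ for the genes with the largest numbers of reads after treatment, in lower case with every match to a searched motif in capitals. The window of Pou4f1 is at chr15:87674644-87674893 on the minus strand, that of Pou4f2 at chr19:46390708-46390957 on the plus strand and that of Isl2 at chr8:64819629-64819878 on the plus strand.
Pou4f1: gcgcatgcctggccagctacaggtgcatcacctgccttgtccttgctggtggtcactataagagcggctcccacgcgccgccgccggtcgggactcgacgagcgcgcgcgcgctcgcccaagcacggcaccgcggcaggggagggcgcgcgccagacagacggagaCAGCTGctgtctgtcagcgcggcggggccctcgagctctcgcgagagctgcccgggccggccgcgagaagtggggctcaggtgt
Pou4f2: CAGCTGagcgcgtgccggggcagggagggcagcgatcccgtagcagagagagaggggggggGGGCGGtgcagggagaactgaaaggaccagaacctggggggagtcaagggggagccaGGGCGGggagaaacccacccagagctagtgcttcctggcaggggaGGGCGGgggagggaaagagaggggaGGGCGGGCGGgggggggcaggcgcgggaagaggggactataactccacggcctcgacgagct
Isl2: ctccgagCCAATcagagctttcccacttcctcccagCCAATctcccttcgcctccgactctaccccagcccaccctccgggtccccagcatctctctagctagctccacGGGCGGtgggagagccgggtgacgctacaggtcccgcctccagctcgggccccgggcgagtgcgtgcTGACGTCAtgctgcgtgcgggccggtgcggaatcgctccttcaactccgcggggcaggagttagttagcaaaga

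The windows of 300 bases were searched for 7 motifs on both strands. The GC box, spelled GGGCGG, matched at 5 places in Pou4f2, of which 2 overlapped each other, at 1 in Pou4f3 and at 1 in Isl2, and occurred in 33.1% of all promoters. The E-box that proneural factors bind, spelled CAGCTG, matched at 1 place in Pou4f1, 84 bases before the start, and at 1 in Pou4f2, and occurred in 15.1% of all promoters. The motif named for its letters, CCAAT, matched at 2 places in Isl2 and at 1 in Isl1 and occurred in 37.5% of all promoters. The cyclic AMP response element, spelled TGACGTCA, matched at 1 place in Isl2 and occurred in 1.83% of all promoters. The other motifs matched in none of the 5 windows. Of all promoters, 14.2% held the TATA box, which was searched as TATAAA, 5.36% held the homeodomain core, which was searched as TAATTA, and 1.78% held the octamer bound by POU proteins, which was searched as ATGCAAAT. These matches describe letters in the window and are not shown here to be sites.

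The 3 Pou4f genes were near the bottom of the measurable range in control cultures, where Isl2 was low but measurable. All 4 genes were many times higher with either drug. Pou4f1, the factor of ganglionic sensory neurons, stood at 1.05, 4.12 and 2.13 normalized counts in control replicates 1, 2 and 3 of the TSA experiment and at 193, 121 and 196 in TSA replicates 1, 2 and 3. In the NaB experiment it stood at 5.18 and 7.31 in the controls and at 201 and 249.7 with NaB. Every treated library lay above every control library, and the lowest treated library of each experiment was 29.4 times (TSA) and 27.5 times (NaB) the highest control of that experiment. The means were 2.44 ± 1.55 in controls and 170.2 ± 42.5 with TSA (SD, n = 3), a 69.9-fold difference, and 6.24 ± 1.51 in controls and 225 ± 34.2 with NaB (SD, n = 2), a 36.1-fold difference. The control values rest on 7 reads in all for TSA and 12 for NaB, so the exact 95% intervals of these ratios run from 33.3 to 173 and from 20.5 to 70.4. These intervals cover counting error only. In bulk RNA, more cells with the transcript and more transcript per cell cannot be told apart.

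Pou4f2, the retinal ganglion cell factor, had almost no reads in controls and many in treated libraries. It had 0 reads in all 3 controls of the TSA experiment and 138, 93 and 159 reads with TSA, which are 129, 84.1 and 154 normalized counts. In the NaB experiment it had 0 reads and 1 read in the controls and 98 and 77 with NaB, which are 92.6 and 74.2 normalized counts. No treated library came near a control library. Against the floor of 3 reads per control library, the mean with TSA, 123 ± 35.7 (SD, n = 3), was at least 38.9-fold higher. The mean with NaB, 83.4 ± 13.0 (SD, n = 2), was 159.8 times the control mean, and since that mean rests on 1 read, the exact 95% interval for counting error runs from 28.5 to 6382.

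Pou4f3, the hair cell factor, was detected at a low level in every control. It stood at 8.44, 6.18 and 7.47 normalized counts in controls and at 91.9, 121 and 94.2 in TSA replicates 1, 2 and 3. It stood at 12.4 and 6.26 in the controls of the NaB experiment and at 73.7 and 83.9 with NaB. The groups did not overlap, and TSA replicate 2, the lowest TSA library for the other three genes, was the highest for Pou4f3. The means rose from 7.36 ± 1.13 to 102 ± 16.3 with TSA (SD, n = 3), a 13.9-fold difference with a counting interval of 8.99 to 22.9, and from 9.34 ± 4.36 to 78.8 ± 7.19 with NaB (SD, n = 2), an 8.43-fold difference with a counting interval of 5.16 to 14.6.

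Isl2, a LIM-homeodomain factor of motor and sensory neurons, was measurable in every control library. It stood at 25.3, 12.4 and 9.60 normalized counts in controls and at 271, 142 and 262 in TSA replicates 1, 2 and 3. It stood at 16.6 and 16.7 in the controls of the NaB experiment and at 223 and 175 with NaB. Control replicate 1 of the TSA experiment was the highest of the 5 controls and was still far below the lowest treated library. The means were 15.8 ± 8.39 and 225 ± 72.1 for TSA (SD, n = 3), a 14.3-fold difference with a counting interval of 10.5 to 19.6, and 16.6 ± 0.0993 and 199 ± 33.6 for NaB (SD, n = 2), an 11.98-fold difference with a counting interval of 8.36 to 17.8.

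**Figure D1:**
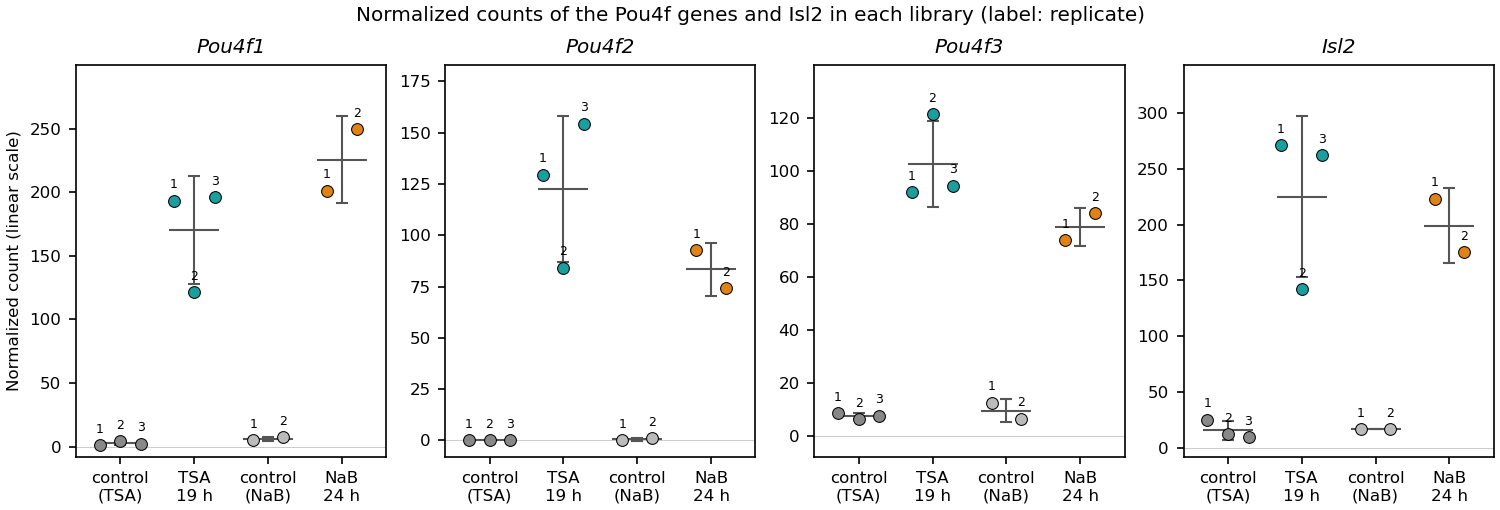
Normalized counts (linear axis) of Pou4f1, Pou4f2, Pou4f3 and Isl2 in each of the 10 libraries, as points labelled with the replicate, with the mean (horizontal line) and SD (bars) of each group. All treated libraries lie above all control libraries, with the lowest treated value at 73.7 (Pou4f3 with NaB) and the highest control value at 25.3 (Isl2).

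On the scale of log2(normalized count + 1), which understates changes from low levels, Pou4f2 was higher by 6.91 (SE 0.37) with TSA and by 5.88 (SE 0.45) with NaB, ranks 2 and 14 of the 15717 tested genes. Pou4f1 was higher by 5.71 (SE 0.35) and 4.97 (SE 0.43), ranks 22 and 55. Isl2 was higher by 3.81 (SE 0.35) and 3.50 (SE 0.43), ranks 195 and 266, and Pou4f3 by 3.63 (SE 0.28) and 3.01 (SE 0.34), ranks 237 and 410. The order of the genes by size of change on this scale was Pou4f2, Pou4f1, Isl2 and Pou4f3 with either drug, and the values of Isl2 and Pou4f3 differed by less than their SE with TSA. The fitted change of Pou4f2, with at most 1 control read, depends on the pseudocount. With a pseudocount of 5 the first 2 genes changed places for NaB (4.00 for Pou4f2 and 4.36 for Pou4f1). Differentially expressed genes (DEGs) had a limma p, adjusted by the Benjamini-Hochberg method, under 0.05. They were also higher or lower by 0.5 or more on the log2 scale. Of all tested genes, 22.5% were higher DEGs with TSA, 21.2% with NaB and 17.0% with both, and all treated libraries lay above all controls for 33.1% with TSA and 40.2% with NaB. Since the 4 genes were chosen on these comparisons, they are not called in them or set against these shares. Over all tested genes, the median change on this scale was 0.022 with TSA and 0.020 with NaB.

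The study's methods pair each treated culture with a control, and the libraries were paired here by the order of their replicates. Within every such pair, Pou4f2 changed more than Pou4f1 on the log2(normalized count + 1) scale. Taken over all pairs, the changes of these genes overlapped. Between Pou4f3 and Isl2 the order differed from pair to pair. For Pou4f1 the log2 change was 6.56, 4.58 and 5.98 in TSA pairs 1, 2 and 3 and 5.03 and 4.92 in NaB pairs 1 and 2. For Pou4f2 it was 7.03, 6.41 and 7.28 with TSA and 6.55 and 5.20 with NaB. In both genes, pair 2 had the smallest change of the TSA pairs. For Pou4f3 the changes were 3.30, 4.09 and 3.49 with TSA and 2.48 and 3.55 with NaB, with pair 2 the largest for each drug. For Isl2 they were 3.37, 3.42 and 4.63 with TSA and 3.67 and 3.32 with NaB, and pair 3, whose control library had the lowest Isl2 value, stood apart.

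**Figure D2:**
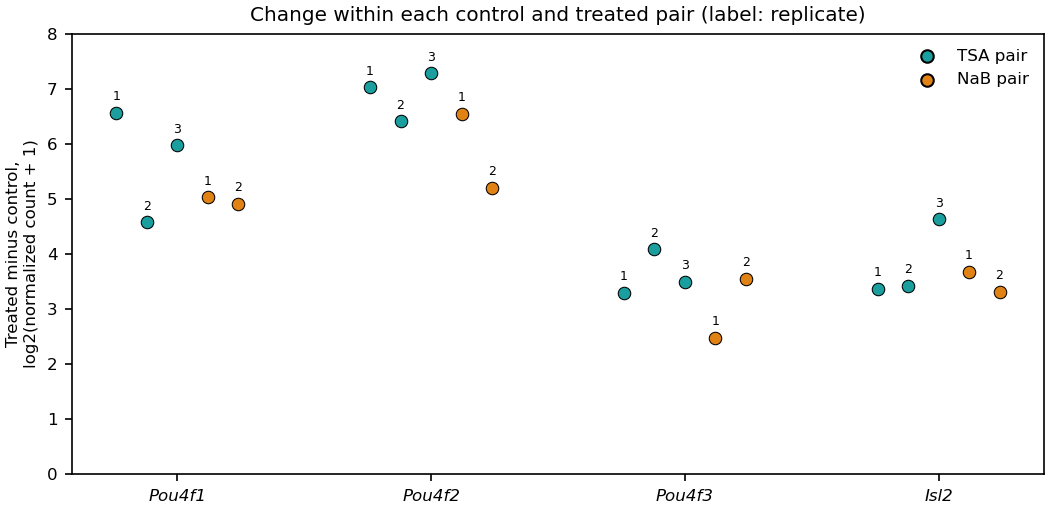
Change within each pair of treated and control cultures, as the difference of log2(normalized count + 1), for the 3 TSA pairs and the 2 NaB pairs of each gene (points labelled with the replicate). All 20 changes lie above 0, from 2.48 (Pou4f3, NaB pair 1) to 7.28 (Pou4f2, TSA pair 3).

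Within the TSA cultures, replicate 2 was low for 3 of the 4 genes. Its value relative to the mean of replicates 1 and 3 was 0.623 for Pou4f1, 0.593 for Pou4f2 and 0.533 for Isl2, but 1.30 for Pou4f3. Over the 3540 genes that were higher DEGs with TSA, the median of this ratio was 0.935, and replicate 2 was the lowest TSA library for 50.3% of them. Without this library the log2 changes with TSA were 5.93, 7.15, 3.50 and 4.11 for Pou4f1, Pou4f2, Pou4f3 and Isl2.

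Whether a gene responded by a different amount in the 2 experiments was tested by subtracting its change with TSA from its change with NaB. The contrast itself did not choose the genes, but it is made of the 2 changes on which they were chosen. Choosing genes that were high after both drugs can favour similar changes, so the lack of a call is not evidence of likeness. The 3 Pou4f genes were in this test only through their treated libraries. None of the 4 genes passed the test. The estimates were below 0, but that of Pou4f1 turned to 0.43 with all 5 controls as 1 group. The difference was -1.03 on the log2 scale for Pou4f2 (SE 0.58, 95% interval -2.33 to 0.26, adjusted p = 0.5004 by limma). It was -0.73 for Pou4f1 (SE 0.55, interval -1.96 to 0.50, adjusted p = 0.631 by limma). It was -0.62 for Pou4f3 (SE 0.44, interval -1.58 to 0.35, adjusted p = 0.605 by limma) and -0.31 for Isl2 (SE 0.55, interval -1.54 to 0.91, adjusted p = 0.864 by limma). These estimates moved with single control libraries. The Pou4f2 difference was -0.52 without the second NaB control and -1.55 without the first, and -2.94 by edgeR. The Pou4f3 difference was -0.17 without the first NaB control and -1.06 without the second. The Isl2 difference was -0.039 without the third TSA control and -0.69 without the first, and the Pou4f1 difference was -0.41 without the first TSA control and -1.07 without the second. The intervals include both smaller and larger responses to NaB than to TSA, so these libraries do not show that the drugs acted alike. By limma 0 of the 4 genes were DEGs in this contrast, 0 had an unadjusted p under 0.05, and DESeq2 and edgeR on the recovered reads also called 0. Of all tested genes, 0.299% were DEGs and 12.6% had an unadjusted p under 0.05. With the pairs as a block, 2.57% of all tested genes (404) were DEGs for this difference, and still 0 of the 4. On the linear scale, the levels of Pou4f2 and Isl2 overlapped between TSA and NaB cultures. Pou4f1 was slightly higher with NaB (201 at the lowest) than with TSA (196 at the highest), and Pou4f3 was lower with NaB (83.9 at the highest) than with TSA (91.9 at the lowest). The TSA and NaB libraries did not overlap for 42.3% of all tested genes, so 2 of 4 is near the background.

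The untreated level was compared between the control cultures of both experiments in the same fit. Pou4f1 was higher in the controls of the NaB experiment by 1.16 on the log2 scale (SE 0.39, 95% interval 0.29 to 2.03, adjusted p = 0.148 by limma), and its control groups did not overlap (1.05 to 4.12 against 5.18 to 7.31), as was the case for 36.4% of all tested genes. That difference did not pass the adjusted threshold, except when control replicate 2 of the TSA experiment was left out (1.5, adjusted p = 0.0487 by limma). Over all alternatives the Pou4f1 estimate ran from 0.61 to 1.5. For Pou4f2, Pou4f3 and Isl2 the estimates were 0.52 (SE 0.41), 0.25 (SE 0.31) and 0.19 (SE 0.39), with limma adjusted p of 0.532, 0.697 and 0.834. The Pou4f2 estimate rests on 1 read in the second NaB control, and was 0 without that library, 1.03 without the first NaB control and 2.38 by edgeR. The Pou4f3 estimate ran from -0.19 to 0.69 without the first and the second NaB control, and the Isl2 estimate from -0.089 to 0.57 without the third and the first TSA control. By limma 0 of the 4 genes were DEGs between controls and 1, Pou4f1, had an unadjusted p under 0.05. DESeq2 and edgeR called 0. Of all tested genes, 1.55% were DEGs and 19.4% had an unadjusted p under 0.05. The control values rest on 0 to 24 reads per library. The 3 Pou4f genes were in this test only because their treated libraries passed the filter, so nothing is read from these counts.

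**Figure D3:**
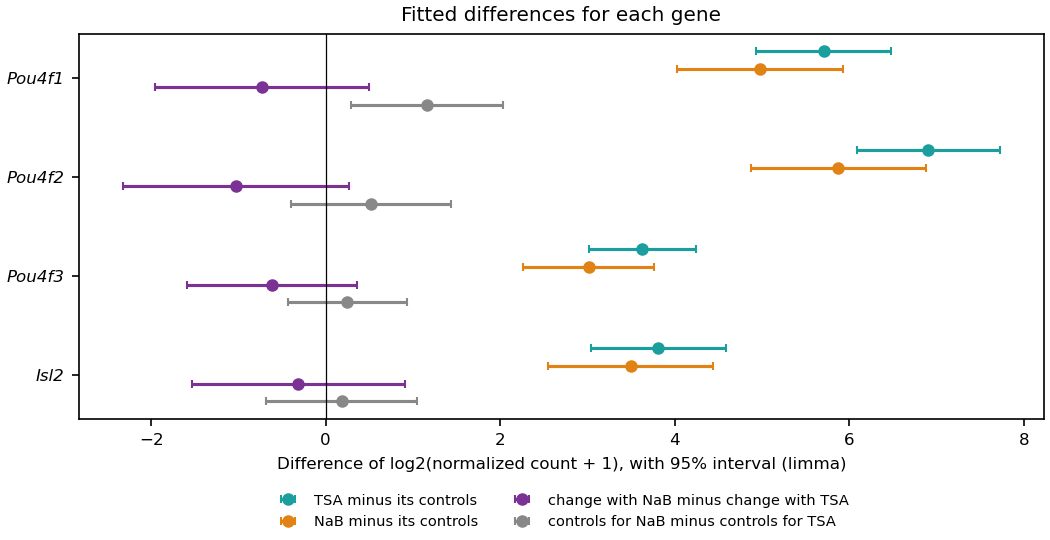
Fitted differences on the scale of log2(normalized count + 1) with 95% intervals from limma for each gene and 4 contrasts. The changes with each drug lie between 3.01 and 6.91, the differences between drugs between -1.03 and -0.31 with intervals that all include 0, and of the differences between controls only the interval of Pou4f1 (0.29 to 2.03) excludes 0.

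The genes whose pattern over the 10 libraries was most like each factor were found by Pearson's r of log2(normalized count + 1) among the 1827 other tested genes that had a symbol. For Pou4f1 they were Pacsin2 (r = 0.997), Nars2 (0.996) and Akap13 (0.995). For Pou4f2 they were Kdelr3 (r = 0.998), Ebf3 (0.997) and Suox (0.996), for Pou4f3 Themis2 (0.995), Qsox1 (0.994) and Trim7 (0.994), and for Isl2 Eomes (0.996), Tbc1d1 (0.992) and Bbs9 (0.992). The libraries fall into treated and untreated clusters, so a high r was common. An r of at least 0.95 was reached with Pou4f1 by 6.19% of the 15716 other tested genes, with Pou4f2 by 6.55%, with Pou4f3 by 4.22% and with Isl2 by 5.13%. Ebf3 and Eomes, both transcription factors of retinal ganglion cells, were on a list described next.

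Genes that act with or beside these factors were followed in 9 lists, and only those whose symbol could be paired with an identifier could be read. Symbols came from the study's supplementary list of upregulated genes, so the genes read here were chosen by the study on these samples. Neither their counts nor their median changes are independent evidence of a direction. Of all tested genes, 22.5% were higher DEGs with TSA and 21.2% with NaB, and the lists are not set against these shares. Of the POU family outside Pou4f, the LIM cofactors (Ldb1 and Lmo4 among them) and the histone deacetylases with the REST complex, 0 genes were paired, and these lists were not analysed here. Avil, Scn10a and Atoh7 were likewise not analysed here.

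Among LIM-homeodomain genes outside Isl, 8 of 10 were tested, of which 8 were higher DEGs with TSA and 6 with NaB. Their median log2 fold change was 2.67 with TSA and 2.66 with NaB, or 2.29 and 2.07 with the 2 genes that had no control read set at their bound. Lmx1b, a factor of serotonergic and dorsal spinal neurons, and Lhx1 had no read in any control, so their fitted changes depend on the pseudocount. Those of Lmx1b were 6.27 (SE 0.35) and 5.86 (SE 0.43). Against 3 reads per control library, the lower bounds of the folds (TSA, then NaB) were 24.8 and 18.7 for Lmx1b and 4.80 and 3.97 for Lhx1. Lhx1 and Lhx5, which are related factors of spinal and brain neurons, changed by 3.94 and 3.73 and by 3.77 and 3.17. Lhx3, a partner of Isl factors in motor neurons, was already present in all controls (35.2 to 41.1 in the TSA experiment and 18.6 and 21.9 in the NaB experiment) and changed by 1.16 (SE 0.23) and 2.15 (SE 0.28). Lhx9 and Lmx1a were not DEGs with NaB (1.32 and 1.34).

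Transcription factors of the sensory lineage gave 10 tested genes of 25, with 10 higher DEGs with TSA and 9 with NaB, and medians of 2.78 and 2.63 (2.44 and 2.33 with genes without control reads at their bound). Hmx1, a factor of cranial sensory neurons, stood at 1.05, 2.06 and 3.20 in controls and 161, 127 and 181 with TSA, and at 4.14 and 3.13 in controls and 101 and 137 with NaB. No treated library of Hmx1 overlapped a control, and its log2 changes of 5.71 and 4.69 were close to those of Pou4f1. Runx3, a factor of proprioceptive neurons, changed by 4.65 and 4.33, and Tlx3, a factor of glutamatergic dorsal horn and sensory neurons, had no read in any control and was at least 5.68-fold higher with either drug (fitted changes of 4.22 and 4.16). Neurog2, a proneural factor that precedes Pou4f1 in ganglia, was present in all controls (17.1 to 36.9) and changed by 1.15 (SE 0.32) and 1.35 (SE 0.39). Neurog1 did not pass the filter, with at most 1 read per control library and 5.67 to 13.5 normalized counts in treated libraries. Runx1, a factor of nociceptors, was not a DEG with NaB (0.67).

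Receptors, channels and peptides of sensory neurons gave 11 tested genes of 30, with 11 higher DEGs with TSA and 10 with NaB, and medians of 2.72 and 2.7. Gal, the gene of the peptide galanin, stood at 9.49, 9.27 and 14.9 in controls and 219, 128 and 134 with TSA, and at 11.4 and 16.7 in controls and 331 and 253 with NaB. Its treated libraries lay above all controls with either drug. The peptide genes Calcb, Gal and Calca changed by 4.47 and 4.38, 3.71 and 4.29, and 3.26 and 3.22, and Prph, the intermediate filament of peripheral neurons, by 1.62 and 1.95. Gfra2, a coreceptor for neurturin, was a higher DEG with TSA (1.04) and was not a DEG with NaB, where its value was -0.15 and its groups overlapped.

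Retinal ganglion cell genes gave 8 tested genes of 19, all 8 higher DEGs with both drugs, and medians of 3.46 and 2.81 (2.43 for NaB with the gene without control reads at its bound). Ebf3 stood at 8.44, 6.18 and 6.4 in controls and 632, 314 and 571 with TSA, and at 10.4 and 13.6 in controls and 399 and 416 with NaB. As for Pou4f1, Pou4f2 and Isl2, TSA replicate 2 was the lowest TSA library of Ebf3. The log2 changes were 5.93 and 4.99 for Ebf3, 4.40 and 3.75 for Irx4, which had no read in the NaB controls, and 3.98 and 3.47 for Eomes.

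Hair cell genes gave 6 tested genes of 17, with 6 higher DEGs with TSA and 5 with NaB, and medians of 2.44 and 2.59. Atoh1, the proneural factor that precedes Pou4f3 in hair cells, stood at 0, 2.06 and 0 in controls and 64.7, 24.4 and 55.4 with TSA, and at 0 in both controls and 36.9 and 47.2 with NaB. Myo15a and Espn, which build the stereocilia, changed by 2.46 and 3.02 and by 2.42 and 3.35. Gfi1, a factor downstream of Pou4f3, did not pass the filter, with at most 1 read per control library and 2.89 to 8.74 normalized counts in treated libraries. Tmc1, the mechanotransduction channel, was not a DEG with NaB (0.60) and its groups overlapped there.

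Motor neuron genes gave 9 tested genes of 14, all 9 higher DEGs with both drugs, and medians of 2.32 and 2.55. This list shares Lhx3, Lhx4 and Neurog2 with lists above. It also holds Olig2, which could not be read here and which the study reported as lower after the inhibitors. Mnx1, a factor that motor neurons express beside Isl genes, stood at 2.11, 0 and 0 in controls and 44.1, 16.3 and 59.3 with TSA, and at 1.04 and 0 in controls and 38.7 and 43.4 with NaB. Nkx6-1, a factor of ventral progenitors, changed by 6.58 and 5.40, and Aldh1a2, an enzyme of retinoic acid synthesis, by 3.92 and 4.68.

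Over all lists, markers included, 51 genes were tested. By limma 0 of them were DEGs in the difference between the drugs and 8 had an unadjusted p under 0.05, edgeR called 0, and DESeq2 called 1, the mechanosensitive channel gene Piezo2. With the replicate block, limma called 2, Gfra2 (-1.19, adjusted p = 0.043) and Tac1 (1.11, adjusted p = 0.0461). Over all tested genes, 12.6% had such a p, so that 8 of 51 is near the background. Between controls, 2 were DEGs by limma and by DESeq2, and both were lower in the NaB experiment. Over all tested genes, 1.55% were DEGs between controls. These were Tac1, the precursor gene of substance P (-1.52, limma adjusted p = 0.0104), and Slc5a7, the choline transporter (-1.77, limma adjusted p = 0.0419), of which edgeR called Tac1 alone. TSA replicate 2 was the lowest TSA library for 34 of the 51 genes (66.7%), against 50.3% of the genes that were higher DEGs with TSA and 39.4% of all tested genes.

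**Figure D4:**
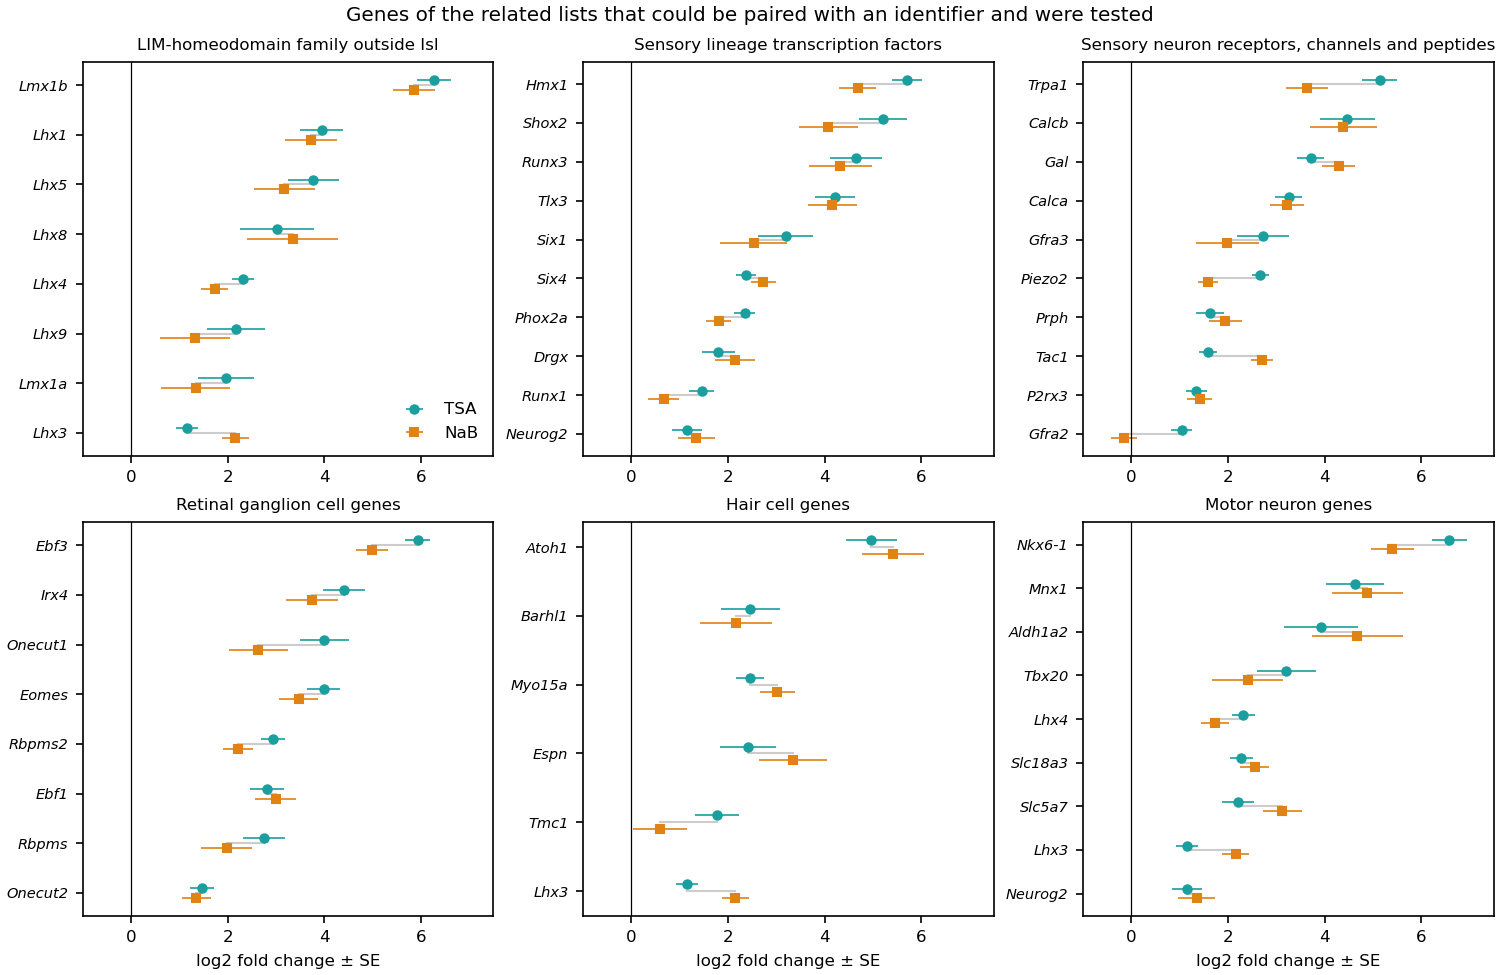
Log2 fold changes with SE for the tested genes of 6 lists (1 gene is not shown), with TSA as circles and NaB as squares, ordered within each list by the change with TSA. The symbols come from a list of upregulated genes, so genes that fell could not appear, and the only value below 0 is that of Gfra2 with NaB (-0.15).

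Markers of the cell types that such cultures can hold could hardly be read. Of 59 marker genes in 8 lists, 3 were paired, and markers of neurons in general, cortical excitatory neurons, astrocytes, oligodendrocytes, microglia and ganglionic glia were not analysed here, so the label of the cultures could not be checked against its defining markers. Pvalb, a marker of a class of inhibitory neurons, was a higher DEG with TSA (1.70) and not with NaB (1.21, limma adjusted p = 0.0984). The study reported lower expression of the inhibitory neuron genes Gad1, Gad2, Htr3a and Vip after the inhibitors. Symbols came from upregulated genes, so a marker that fell could not appear here. Kdr, a receptor of endothelial cells, was a higher DEG with both drugs (2.53 and 1.27). Col1a1, a collagen of meningeal and perivascular cells, stood at 909, 47.4 and 1379 in controls and at 798, 696 and 879 with TSA, and at 149 and 137 in controls and 876 and 961 with NaB. Its change with NaB was 2.68 and passed the thresholds with the replicate block (limma adjusted p = 0.0117) and not without it (limma adjusted p = 0.0735). Control replicate 2 of the TSA experiment was thus far below the other two controls for Col1a1. Without that library, the log2 changes with TSA were 6.04, 6.91, 3.52 and 3.70 for Pou4f1, Pou4f2, Pou4f3 and Isl2. The part of these cell types in the values of the Pou4f and Isl genes was not tested.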

How the data were processed

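RNA of 10 cultures in 4 groups was measured by mRNA sequencing. The authors aligned reads with STAR, summed them over genes with featureCounts and divided the sums by DESeq2's size factors. The submitters' processing notes name STAR 2.7.9a, featureCounts 2.0.1, DESeq2 1.29 and Rnor 6.0. The strand setting and the treatment of reads that match several places are not given in the sources used here, so overlapping, antisense and paralogous genes, among them the Pou4f genes, are uncertain to that extent. The deposited signal is this normalized count. Division by the smallest value above 0 in each library gave whole reads for 100% of values (tolerance 0.01 reads), and totals were 26070908 to 27649249 reads per library, so a count of 0 in a library allows up to 3 reads.

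All genes were fitted in limma 3.58.1 (R 4.3.3) on log2(normalized count + 1) with an empirical Bayes trend, in 4 groups with a shared spread and without a block. The filter of edgeR (filterByExpr, minimum count 10) kept 15717 of 32883 genes. Tests were two-sided with Benjamini-Hochberg adjustment over all tested genes, and DEGs had an adjusted p under 0.05 and a change of 0.5 or more, in either direction, on the log2 scale. Folds are ratios of group means, or, where all controls had 0 reads, lower bounds against 3 reads per library. Their intervals are exact (Clopper-Pearson) on summed reads. Pairs were inferred from the order of the replicates in the labels. Control and treated cultures carry the same numbers for TSA but not for NaB. The study's methods state that a pair shared a plate, and not which libraries form it. Deviations from group means of paired libraries correlated with r = 0.284, 0.392 and 0.314 for TSA and 0.342 for NaB. Libraries of different pairs were not compared in this way, and with 2 libraries a group the NaB pairs must share 1 value. The pairing was therefore assumed.

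The genes, lists and contrasts were chosen with earlier results of these data known. Named were the 5 genes, up to 3 list genes with the largest change with both drugs and a fixed set of further genes, and the 3 genes most like each factor by Pearson's r. Of these, 1 list gene is not reported here. Other genes were named after their values were seen: those of a list that were not DEGs with NaB, those that were DEGs between controls and the paired markers. Symbols of 1909 identifiers came from the readable rows of the study's supplementary list, whose fold changes and p-values were not used. Promoters are from RefSeq (GRCr8), and no genome was given. Alternatives were DESeq2 1.42.0 and edgeR 4.0.16 (TMM) on the recovered reads, pseudocounts of 0.5 and 5, no filter, library totals, each comparison's libraries alone, all 5 controls as 1 group, a replicate block, minimum log2 fold changes of 0 and 1, and fits that left out 1 library at a time. The fit was tested on simulated data.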

Additional observations from a re-analysis of the deposited data

How the results depend on the processing

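The changes with each drug chose the 4 genes, so their calls with either drug are not given. For the difference between the drugs, 0 of the 4 were DEGs under the 20 alternatives that could be fitted. Log2 changes of low genes moved with the pseudocount and the tool. For Pou4f2 with TSA they ranged from 4.63 (pseudocount 5) to 9.94 (edgeR), since all its controls were at 0 reads. Adjusted p-values of the difference ranged from 0.343 to 0.881 for Pou4f1, 0.355 to 0.799 for Pou4f2, 0.431 to 0.914 for Pou4f3 and 0.615 to 0.985 for Isl2. Over the same alternatives the difference itself ranged from -2.94 (edgeR) to -0.52 for Pou4f2, from -1.06 to -0.17 for Pou4f3 and from -0.69 to -0.039 for Isl2. Its sign turned for Pou4f1 with all 5 controls as 1 group (0.43). Between controls, the sign turned for Pou4f3 without the first NaB control (-0.19) and for Isl2 without the third TSA control (-0.089), where their ranges with 1 library left out reached 0.69 and 0.57. For Pou4f2 the range was 0 to 1.03 with 1 library left out and reached 2.38 by edgeR. Leaving out single libraries gave 0 to 1 of the 4 genes as DEGs, the 1 being Pou4f1 without the second TSA control.

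With a minimum log2 fold change of 1, DEGs numbered 3416 for TSA, 3450 for NaB and 105 between controls. DEGs for the difference between the drugs (47) numbered 239 by DESeq2, 31 without a filter, 71 with library totals, 422 with all 5 controls as 1 group and 1 to 45 with single libraries left out. The replicate block gave 404, among them Gfra2 and Tac1, and made Col1a1 a DEG with NaB. It changed no other call of the 51 list genes with either drug or between the drugs. Between the drugs it still called 0 of the 4 genes. DEGs between controls (243) numbered 569 by DESeq2, 104 without a filter, 6 with the control libraries alone and 23 to 461 with single libraries left out. A lone library left in an arm was assumed to vary like the others. Each comparison's libraries alone give no difference between drugs, and neither the block nor the joined controls gives a contrast between controls.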
